A study of Bos taurus with 15 samples.

Results

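Transcripts of 8 genes that mark macrophages or leukocytes in general were followed in bovine biceps brachii, a limb skeletal muscle. The 8 genes are CD163, CD68, CD14, CSF1R, CTSS and TYROBP, which are used as macrophage markers, and PTPRC and ITGB2, which nearly every leukocyte expresses. They were taken from a list of marker genes and looked up on the array by symbol, by gene identifier or by the human symbol in the probe's description, and all 8 were found among the 15081 named genes that could be tested. The study compared 8 animals that received oral prednisolone (a synthetic glucocorticoid, 30 mg per animal each day over 35 days) with 7 animals labelled as controls. Each animal gave 1 array, and P25 to P32 and C17 to C24 are the study's own animal numbers, with C19 not among them. RNA of the prednisolone animals was isolated with TRIzol and cleaned on RNeasy MinElute columns, while control RNA came from the RNeasy Mini kit, so that treatment and extraction cannot be told apart. The treatment field of the control samples lists the growth promoters Finaplix and Revalor and a combination of Revalor with dexamethasone, another glucocorticoid. It does not say which animals, if any, received them. Age, sex and breed are not stated in the labels used here, and nothing there describes pooling of animals.

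Resident macrophages of skeletal muscle lie in the connective tissue between fibres, clear debris and support repair after injury. Glucocorticoids act on leukocytes: in cultured human monocytes, CD163 is a classic glucocorticoid-induced gene, and long exposure lowers the number of circulating lymphocytes. In whole muscle these transcripts come from a minority of the cells, so that fewer macrophages or leukocytes and less transcript per cell cannot be told apart.

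Each of the 8 genes was represented by 1 probe, printed as 2 spots per array. On the 8 prednisolone arrays, the scanner software marked all 16 spots of 7 of the genes as well above background, and none was saturated. CD68 was the dim gene, with 15 of its 16 spots well above background and 14 found as spots. Its 2 spots scattered with an SD of 0.38 on the log2 scale, against 0.076 to 0.12 for the other genes. Detection flags of the control arrays were not used here. The array carries 5 further probes described only as similar to the CD163 antigen, whose gene identifiers the RefSeq table does not hold. Each of these had at most 1 of its 16 spots well above background on the prednisolone arrays, and their group differences are not interpreted.

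None of the 8 genes differed between the groups beyond the spread between animals. In limma, with Benjamini-Hochberg adjustment over 20894 probes, 0 of 8 passed an adjusted p of 0.05, as did 0% of all probes. At an unadjusted p under 0.05 there were 0 of 8 genes, beside 3.35% of all probes, and 0 of 8 had groups that did not overlap, beside 0.278% of all probes. The mean was lower in prednisolone animals for 6 genes and higher for 2 (CD68 and TYROBP), where 48.0% of all probes were lower. The median log2 difference of the 8 genes was -0.26, prednisolone minus control, and that of all tested probes was 0.010. It became 0.060, with 4 genes lower and 4 higher, without C17, C20 and P31, which an earlier analysis had named for thymus or testis transcripts, and 0.053 with array weights. Values below are log2 intensities, which compare animals within a gene and not genes with each other, and errors are SDs between animals, with 8 prednisolone and 7 control animals for every gene.

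Of the scavenger and lysosomal genes, CD163 had the largest difference of means. CD163 encodes the scavenger receptor that takes up haemoglobin bound to haptoglobin. Its log2 intensity ran from 8.38 to 9.51 in prednisolone animals, with a median of 9.12, and from 8.71 to 10.60 in control animals, with a median of 9.64. All 8 prednisolone animals lay below the control median, and C17, C18, C20 and C21 lay above every prednisolone animal, but the ranges overlapped, with C23 (8.77) and C24 (8.71) among the lower prednisolone animals. The means were 8.99 ± 0.46 in prednisolone animals and 9.53 ± 0.68 in control animals, so that the log2 difference was -0.54 (95% interval -1.14 to 0.065, limma unadjusted p = 0.0768, adjusted p = 0.993). As a ratio of prednisolone to control this is 0.690, with an interval from 0.455 to 1.05, and the exact two-sided permutation test over all 6435 splits of the animals gave p = 0.0906. The difference was -0.36 without C18, the animal with the highest CD163, and went the other way to -0.67 without C24 (limma unadjusted p = 0.0292, adjusted p = 0.988) and -0.66 without C23 (limma unadjusted p = 0.0335, adjusted p = 0.957).

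CTSS, the lysosomal cysteine protease that trims the invariant chain during antigen presentation, also had a lower mean in prednisolone animals. It ran from 9.03 to 10.18 in prednisolone animals, with a median of 9.62, and from 9.67 to 10.59 in control animals, with a median of 9.78. P29 (9.03), P30 (9.14), P31 (9.17) and P32 (9.56) lay below every control animal, while P25 (10.18) and P26 (10.16) were among the highest of all. The log2 difference was -0.36 (95% interval -0.805 to 0.090, limma adjusted p = 0.993, exact permutation p = 0.120). CD68, a glycoprotein of macrophage lysosomes, ran from 3.80 to 4.99 in prednisolone animals, with a median of 4.43, and from 3.41 to 4.85 in control animals, with a median of 4.36. The groups covered nearly the same range, with a log2 difference of 0.15 (95% interval -0.38 to 0.67, limma adjusted p = 0.993, exact permutation p = 0.562). It was 0.0026 without C24, the animal with the lowest CD68.

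**Figure D1:**
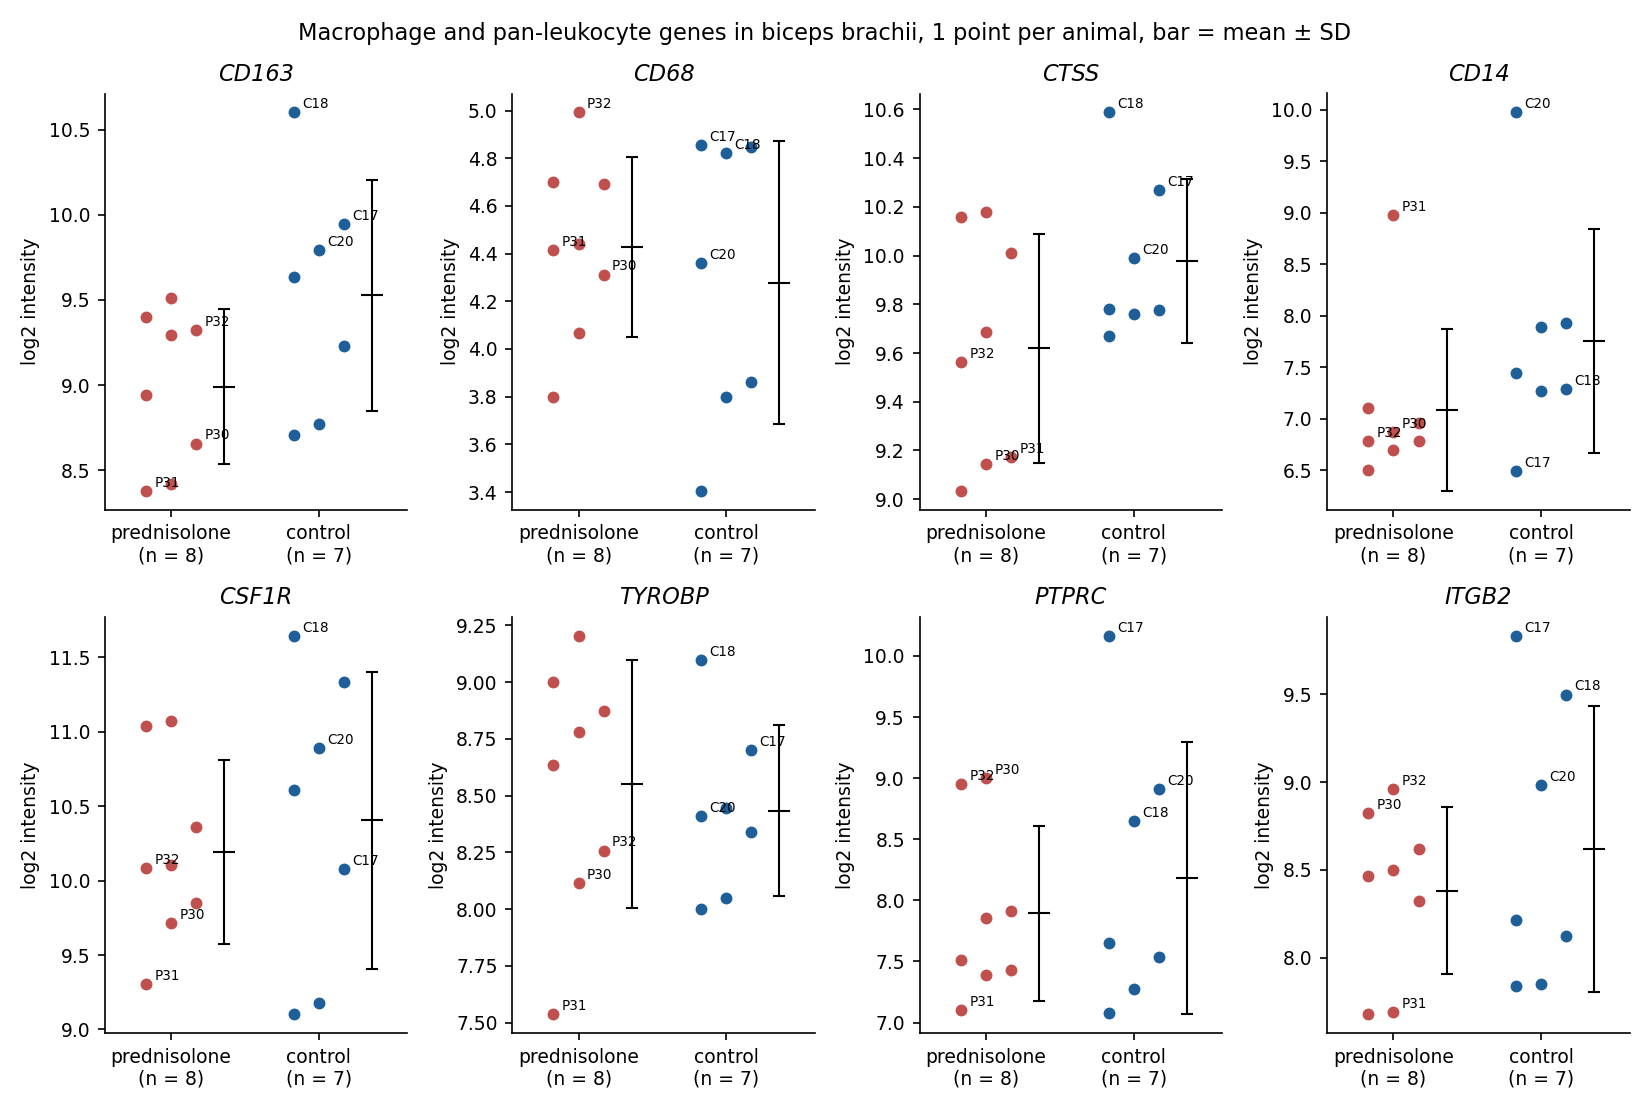
Log2 intensity of the 8 genes, 1 panel per gene with its own axis range; each point is 1 animal, prednisolone (n = 8) left of control (n = 7), bars give the mean and SD, and C17, C18, C20, P30, P31 and P32 are labelled. The groups overlap in every panel, CD14 is high in P31 (8.98) and C20 (9.98), and PTPRC is highest in C17 (10.16).

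Among the surface receptors, CD14, the co-receptor that hands bacterial lipopolysaccharide to TLR4, was set apart by single animals. It ran from 6.51 to 8.98 in prednisolone animals, with a median of 6.83, and from 6.49 to 9.98 in control animals, with a median of 7.45. P31 (8.98) stood well above the other 7 prednisolone animals, whose highest value was 7.10 in P25, and C20 (9.98) well above the other control animals, whose highest was 7.93 in C24. The means were 7.08 ± 0.79 in prednisolone animals and 7.76 ± 1.09 in control animals, which gave a log2 difference of -0.67 (95% interval -1.65 to 0.30, limma adjusted p = 0.993, exact permutation p = 0.207). The difference was -0.94 without P31 and -0.30 without C20. Without C17, C20 and P31, the groups no longer overlapped: the 7 remaining prednisolone animals lay between 6.51 and 7.10 and the 5 remaining control animals between 7.27 and 7.93. The log2 difference was then -0.75 (limma unadjusted p = 0.000409, adjusted p = 0.480). That exclusion removes the highest prednisolone value and the lowest control value (C17, 6.49) together with the highest control value, and with it 6.25% of 20187 probes had an unadjusted p under 0.05 and 0.743% had groups that did not overlap, while 0.00495% passed the adjusted p. The scores of a list of testis germ cell transcripts, which CD14 followed across animals, lay between -3.67 and 3.79 in prednisolone animals and between -1.17 and 4.53 in control animals. Without C17, C20 and P31, the Pearson r of CD14 with that list was 0.695 and did not pass (adjusted permutation p = 0.0888). With a list of endothelial genes it was then 0.847 (adjusted permutation p = 0.0134), against -0.038 with all animals (adjusted permutation p = 0.924). In that exclusion 0 endothelial genes had a higher and 11 a lower mean in prednisolone animals. The part of either list in the CD14 difference was not tested.

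CSF1R, the receptor for the macrophage growth factors CSF1 and IL34, varied widely in both groups. It ran from 9.31 to 11.07 in prednisolone animals, with a median of 10.09, and from 9.10 to 11.64 in control animals, with a median of 10.61. High values (C18, C21, P25, P26) and low values (C23, C24, P31) came from both groups, and the log2 difference was -0.21 (95% interval -1.06 to 0.635, limma adjusted p = 0.993, exact permutation p = 0.613). It was -0.0081 without C18 and 0.0023 with array weights. TYROBP, the adaptor protein through which TREM receptors signal in myeloid and natural killer cells, ran from 7.54 to 9.20 in prednisolone animals, with a median of 8.71, and from 8.00 to 9.10 in control animals, with a median of 8.41. P25, P26, P27, P28 and P29 lay above the control median and P30, P31 and P32 below it, and the log2 difference was 0.12 (95% interval -0.39 to 0.63, limma adjusted p = 0.993, exact permutation p = 0.644). P25 and P26 shared the first of 5 slides that held prednisolone arrays and had the top values of that group for CSF1R, TYROBP, CTSS and CD163. Without these 2 animals the log2 difference of TYROBP was -0.068, that of CSF1R -0.50, that of CTSS -0.54 (limma unadjusted p = 0.0177, adjusted p = 0.998) and that of CD163 -0.69 (limma unadjusted p = 0.0402, adjusted p = 0.998), where 3.51% of 20201 probes had an unadjusted p under 0.05. In that comparison 7 of the 8 genes had a lower mean in prednisolone animals, 2 had an unadjusted p under 0.05 and 0 had groups that did not overlap, beside 0.559% of all probes. Slides of the control arrays are not known here, so slide could not enter the fit as a block.

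The pan-leukocyte genes were highest in 1 control animal. PTPRC encodes CD45, the receptor-type phosphatase that sets the activity of Src family kinases in leukocytes. It ran from 7.10 to 9.001 in prednisolone animals, with a median of 7.68, and from 7.08 to 10.16 in control animals, with a median of 7.65. C17 (10.16) stood above P30 (9.001), P32 (8.95), C20 (8.91) and C18 (8.65), and the other 10 animals lay between 7.08 and 7.92. The log2 difference was -0.29 (95% interval -1.24 to 0.67, limma adjusted p = 0.993, exact permutation p = 0.571), and 0.045 without C17. ITGB2 encodes the integrin beta chain CD18, which pairs with several alpha chains to let leukocytes adhere to and cross endothelium. It ran from 7.68 to 8.96 in prednisolone animals, with a median of 8.48, and from 7.84 to 9.83 in control animals, with a median of 8.21. C17 (9.83) and C18 (9.50) were highest, 6 of 8 prednisolone animals lay above the control median, and the difference of means had the other sign at -0.24 (95% interval -0.92 to 0.45, limma adjusted p = 0.993, exact permutation p = 0.492). Without C17, C20 and P31 the log2 difference was 0.37 for PTPRC and 0.18 for ITGB2. Without C17, P30 and P32, the animals with the highest T cell scores, it was -0.32 for PTPRC and -0.20 for ITGB2. In that last comparison 6 of the 8 genes were lower (46.6% of all probes), 0 had an unadjusted p under 0.05 (3.29% of all probes) and 0 had groups that did not overlap (0.476% of all probes).

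**Figure D2:**
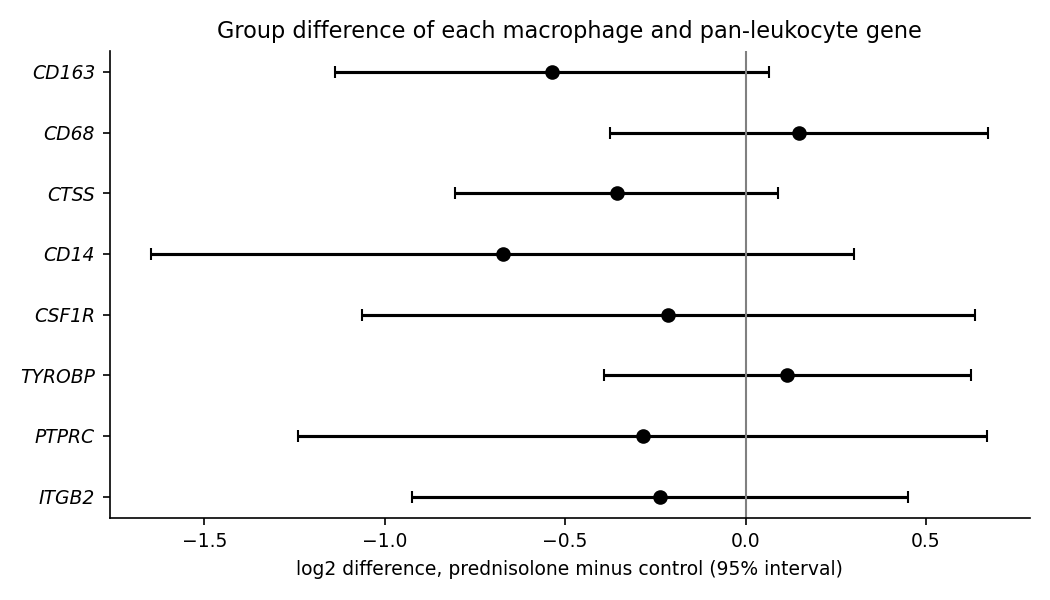
Log2 difference of each gene, prednisolone (n = 8) minus control (n = 7), with its 95% interval from limma; the vertical line marks no difference. Every interval crosses 0, with CD163 nearest to excluding it (-1.14 to 0.065).

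The genes varied more between animals of a group than most transcripts did. The pooled SD within groups was 0.94 for CD14, 0.92 for PTPRC and 0.82 for CSF1R. These exceeded the SDs of 95.7%, 95.4% and 93.6% of the 12349 probes with a value on every array and detection on all prednisolone arrays, whose median SD was 0.35. ITGB2 (0.65), CD163 (0.57), CD68 (0.49), TYROBP (0.48) and CTSS (0.41) exceeded between 64.3% and 88.5% of these probes. From the lowest to the highest animal, CD14 spanned 11.2-fold, PTPRC 8.48-fold, CSF1R 5.82-fold and CD163 4.67-fold, and CTSS, the narrowest, 2.93-fold. C18 was highest for CD163, CSF1R and CTSS, C17 for PTPRC and ITGB2, C20 for CD14, P25 for TYROBP and P32 for CD68. P31 was lowest for CD163 and TYROBP and close to lowest for CSF1R, PTPRC and ITGB2, although it had the second highest CD14.

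Across the 15 animals PTPRC and ITGB2 formed the closest pair, 5 of the 10 pairs among CD163, CSF1R, CTSS, CD68 and TYROBP passed, and no pair with CD14 did. Of 28 pairs, 21 had a positive Pearson r, and all 7 negative ones involved CD14, whose r with the other genes lay between -0.47 and -0.026. With quantile normalization r of CD14 turned positive with CSF1R (0.149), CTSS (0.0999), CD163 (0.0225) and CD68 (0.000476). After adjustment over the pairs, 7 passed 0.05 by Pearson and 4 by Spearman correlation, with two-sided p-values from 100000 permutations. PTPRC and ITGB2 went together across animals (Pearson r = 0.918, permutation p = 1e-05, the smallest these permutations can give, adjusted p = 0.00028; Spearman rho = 0.907, permutation p = 2e-05, adjusted p = 0.00056). Their r was 0.892 without C17 and P30, and it was 0.835 within prednisolone animals and 0.952 within control animals.

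CD163 and CSF1R were high and low in the same animals (Pearson r = 0.794, permutation p = 0.00027, adjusted p = 0.00378; Spearman rho = 0.757, permutation p = 0.00157, adjusted p = 0.022). Within prednisolone animals r was 0.827 and within control animals 0.828. Without C18 and P31, the farthest from the median, r was 0.678 and no longer passed (adjusted permutation p = 0.0661). CSF1R also followed TYROBP (Pearson r = 0.711, permutation p = 0.00341, adjusted p = 0.0246; Spearman rho = 0.729, permutation p = 0.003, adjusted p = 0.028), with r = 0.740 without C18 and C21 and r = 0.647 (adjusted permutation p = 0.0682) without P25 and P26. That call was also lost without C17, C20 and P31 (r = 0.723, adjusted permutation p = 0.056).

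CD163 followed CD68 (Pearson r = 0.652, permutation p = 0.00825, adjusted p = 0.033; Spearman rho = 0.693, permutation p = 0.00546, adjusted p = 0.0382), with r = 0.739 without C18 and P31. The call was lost with quantile normalization (r = 0.603, adjusted permutation p = 0.0558), without C17, C20 and P31 (adjusted permutation p = 0.056), without C17, P30 and P32 (adjusted permutation p = 0.0531) and without P25 and P26 (adjusted permutation p = 0.0682). CTSS followed TYROBP (Pearson r = 0.656, permutation p = 0.00826, adjusted p = 0.033; Spearman rho = 0.614, permutation p = 0.0163, adjusted p = 0.0798), with r = 0.759 without C18 and P29. This call was lost without C17, C20 and P31 (r = 0.599, adjusted permutation p = 0.154), without C17, P30 and P32 (adjusted permutation p = 0.07) and without P25 and P26 (adjusted permutation p = 0.0828). CD163 also followed CTSS (Pearson r = 0.698, permutation p = 0.00352, adjusted p = 0.0246, and Spearman rho = 0.611, permutation p = 0.0171, adjusted p = 0.0798). This call was lost without C18 and P31 (r = 0.476) and without C17, C20 and P31 (adjusted permutation p = 0.154). It was also lost without C17, P30 and P32 (adjusted permutation p = 0.0641) and without P25 and P26 (adjusted permutation p = 0.0636). CD163 followed ITGB2 too (Pearson r = 0.676, permutation p = 0.00536, adjusted p = 0.03, and Spearman rho = 0.579, permutation p = 0.0264, adjusted p = 0.0924). That call was lost without C18 and P31 (r = 0.504), without C17, C20 and P31 (adjusted permutation p = 0.21) and without P25 and P26 (adjusted permutation p = 0.0636). By contrast CSF1R and PTPRC had a Pearson r of 0.159 (permutation p = 0.573, adjusted p = 0.669; Spearman rho = 0.221, permutation p = 0.427, adjusted p = 0.508; r = 0.163 without C18 and C21). Scan days and slides held too few arrays for a correlation within each.

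**Figure D3:**
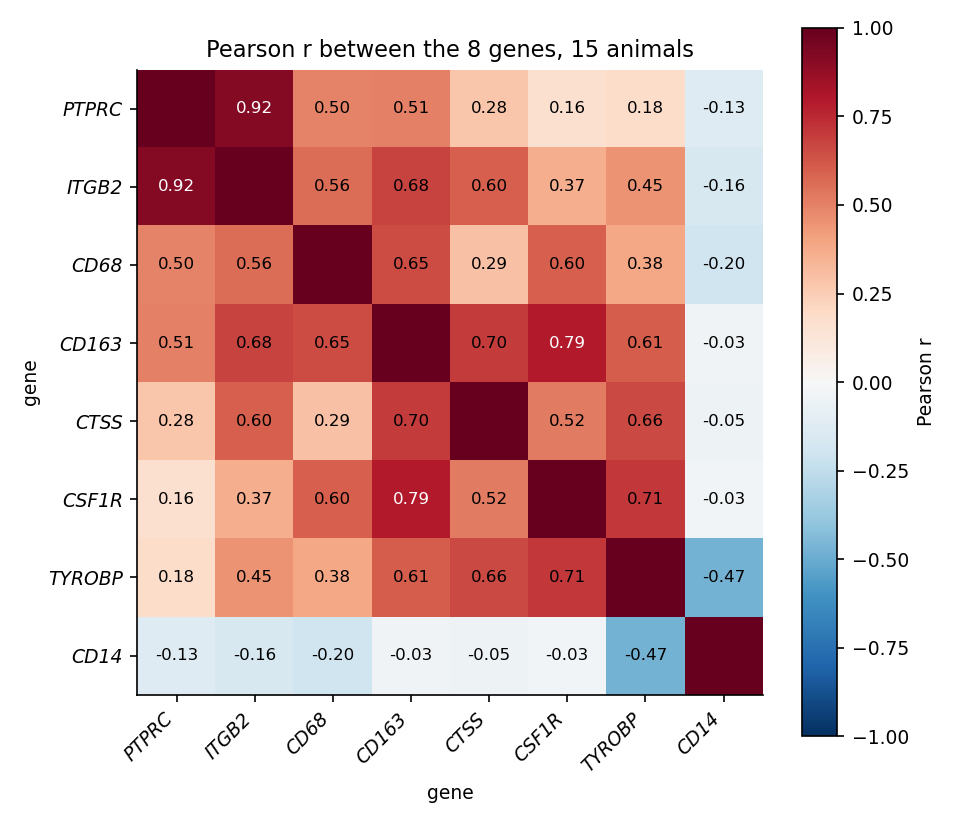
Pearson r between the 8 genes over the 15 animals; red is positive, blue is negative, and each cell prints its r. PTPRC and ITGB2 form the strongest pair (0.92), CD163, CTSS, CSF1R and TYROBP are positively related throughout, and all 7 values of CD14 with the other genes are below 0 (4 of them turned positive with quantile normalization).

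The genes were then set against lists of marker genes of other cells. Each list was summarised per animal as the mean of its genes with a value on all 15 arrays, each centred on its mean. The scores thus rest on 7 of 15 T cell, 3 of 6 thymocyte, 2 of 7 natural killer and 7 of 13 testis germ cell genes tested. Genes were not scaled, so that the most variable ones weigh most. These scores are in log2 units, and 17 lists against the 8 genes gave 136 relations, of which 22 passed an adjusted Pearson p of 0.05. CSF1R followed a list of macrophage receptors and scavengers (Pearson r = 0.848, permutation p = 9e-05, adjusted p = 0.00136; Spearman rho = 0.861, permutation p = 6e-05, adjusted p = 0.00204; r = 0.816 without P26 and C23). CD163 followed it as well (Pearson r = 0.778, permutation p = 0.0007, adjusted p = 0.00671; Spearman rho = 0.782, permutation p = 0.00103, adjusted p = 0.0108; r = 0.829 without P26 and C23), as did CD68 (Pearson r = 0.787, permutation p = 0.00074, adjusted p = 0.00671; Spearman rho = 0.793, permutation p = 0.00075, adjusted p = 0.0085; r = 0.766 without P26 and C23). TYROBP passed with this list (r = 0.694, adjusted permutation p = 0.0306), but not without P26 and C23 (adjusted permutation p = 0.145). CTSS followed the list of macrophage products and regulators (Pearson r = 0.733, permutation p = 0.00189, adjusted p = 0.0143, and Spearman rho = 0.743, permutation p = 0.00205, adjusted p = 0.0186). Without C18 and C20 its r was 0.655 and no longer passed (adjusted permutation p = 0.108). CD163 (r = 0.774, adjusted permutation p = 0.00617) and CSF1R (r = 0.755, adjusted permutation p = 0.0102) followed these products too. Both calls were lost without C18 and C20 (adjusted permutation p = 0.160 and 0.108).

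CD14, although chosen as a macrophage marker, did not follow the macrophage receptors. Its Pearson r with the list of macrophage receptors was -0.215 (permutation p = 0.456, adjusted p = 0.738; Spearman rho = -0.293, permutation p = 0.289, adjusted p = 0.546; r = -0.179 without P26 and C23). CD14 followed testis germ cell transcripts (Pearson r = 0.791, permutation p = 8e-05, adjusted p = 0.00136; Spearman rho = 0.714, permutation p = 0.00376, adjusted p = 0.0298). Without P31 and C20, which had the highest scores of that list (3.79 in P31 and 4.53 in C20) as well as the highest CD14, r was 0.664 and no longer passed (adjusted permutation p = 0.108). Within the groups r was 0.714 in prednisolone animals and 0.864 in control animals. CD14 also followed the list of Leydig and Sertoli cell genes (Pearson r = 0.861, permutation p = 0.00032, adjusted p = 0.00396; Spearman rho = 0.654, permutation p = 0.0097, adjusted p = 0.06; r = 0.651 without C20 and P31, where it no longer passed, adjusted permutation p = 0.109). TYROBP ran the other way with the germ cell list (Pearson r = -0.788, permutation p = 0.00054, adjusted p = 0.00612; Spearman rho = -0.804, permutation p = 0.00051, adjusted p = 0.00694; r = -0.820 without C20 and P31).

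PTPRC followed the T cell, B and plasma cell and natural killer lists and did not follow the macrophage receptors. Its Pearson r was 0.901 with the B and plasma cell list and 0.881 with the natural killer list (adjusted permutation p = 0.000544 for both). The first call held without C17 and P32 (r = 0.774, adjusted permutation p = 0.0167) but was lost without C17, P30 and P32 (adjusted permutation p = 0.084). With the natural killer list PTPRC had r = 0.891 without C20 and C17 (adjusted permutation p = 0.00476). With the T cell list its Pearson r was 0.938 (permutation p = 2e-05, adjusted p = 0.000544; Spearman rho = 0.946, permutation p = 1e-05, adjusted p = 0.000453; r = 0.866 without C17 and P30), and with the list of macrophage receptors it was 0.228 (permutation p = 0.417, adjusted p = 0.713; Spearman rho = 0.293, permutation p = 0.288, adjusted p = 0.546; r = 0.280 without P26 and C23). ITGB2 followed the T cell list with a lower r (Pearson r = 0.771, permutation p = 0.00106, adjusted p = 0.00901; Spearman rho = 0.821, permutation p = 0.00039, adjusted p = 0.00589; r = 0.640 without C17 and P30), and the call was lost without C17 and P30 (adjusted permutation p = 0.111) and without C17, C20 and P31 (adjusted permutation p = 0.219). The difference between these 2 correlations was not tested. For ITGB2, r was 0.880 with the natural killer list (adjusted permutation p = 0.00068) and 0.841 with the B and plasma cell list (adjusted permutation p = 0.00136). Without C17, C20 and P31 both calls of ITGB2 held (adjusted permutation p = 0.00272 and 0.0386). With the list of other pan-leukocyte genes, which shares no gene with the T cell list, r was 0.960 for PTPRC and 0.956 for ITGB2 (permutation p = 1e-05 and adjusted p = 0.000544 for both; Spearman rho = 0.950 and 0.929, permutation p = 1e-05 and adjusted p = 0.000453 for both; r = 0.926 and 0.931 without C17 and C24). PTPRC also followed the thymocyte list (Pearson r = 0.855, permutation p = 0.00018, adjusted p = 0.00245; Spearman rho = 0.714, permutation p = 0.00394, adjusted p = 0.0298; r = 0.705 without C17 and P30). The call with the thymocyte list was lost without C17 and P30 (adjusted permutation p = 0.0638). Without C17, P30 and P32, which had the highest thymocyte scores, its r was 0.560 with that list (adjusted permutation p = 0.218) and 0.813 with the T cell list (adjusted permutation p = 0.0386). With the macrophage products it had a Pearson r of 0.332 (permutation p = 0.229, adjusted p = 0.555; Spearman rho = 0.393, permutation p = 0.151, adjusted p = 0.41; r = 0.141 without C18 and C20), which became 0.788 without C17, P30 and P32 (adjusted permutation p = 0.024). With the neutrophil list its r was 0.725 (permutation p = 0.00253, adjusted p = 0.0181; Spearman rho = 0.518, permutation p = 0.0509, adjusted p = 0.192). That call was lost without C17 and P32 (r = 0.541, adjusted permutation p = 0.213). PTPRC ran the other way with the endothelial list (Pearson r = -0.676, adjusted permutation p = 0.0368, and Spearman rho = -0.568, adjusted permutation p = 0.152). This held without C22 and C24 (r = -0.720, adjusted permutation p = 0.0486). It was lost without C17, C20 and P31 (adjusted permutation p = 0.165) and without C17, P30 and P32 (adjusted permutation p = 0.376). DNTT, which adds nucleotides at antigen receptor joints in immature lymphocytes, reached 12.10 in P30 and 11.31 in P32, and 13.77 in C17.

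**Figure D4:**
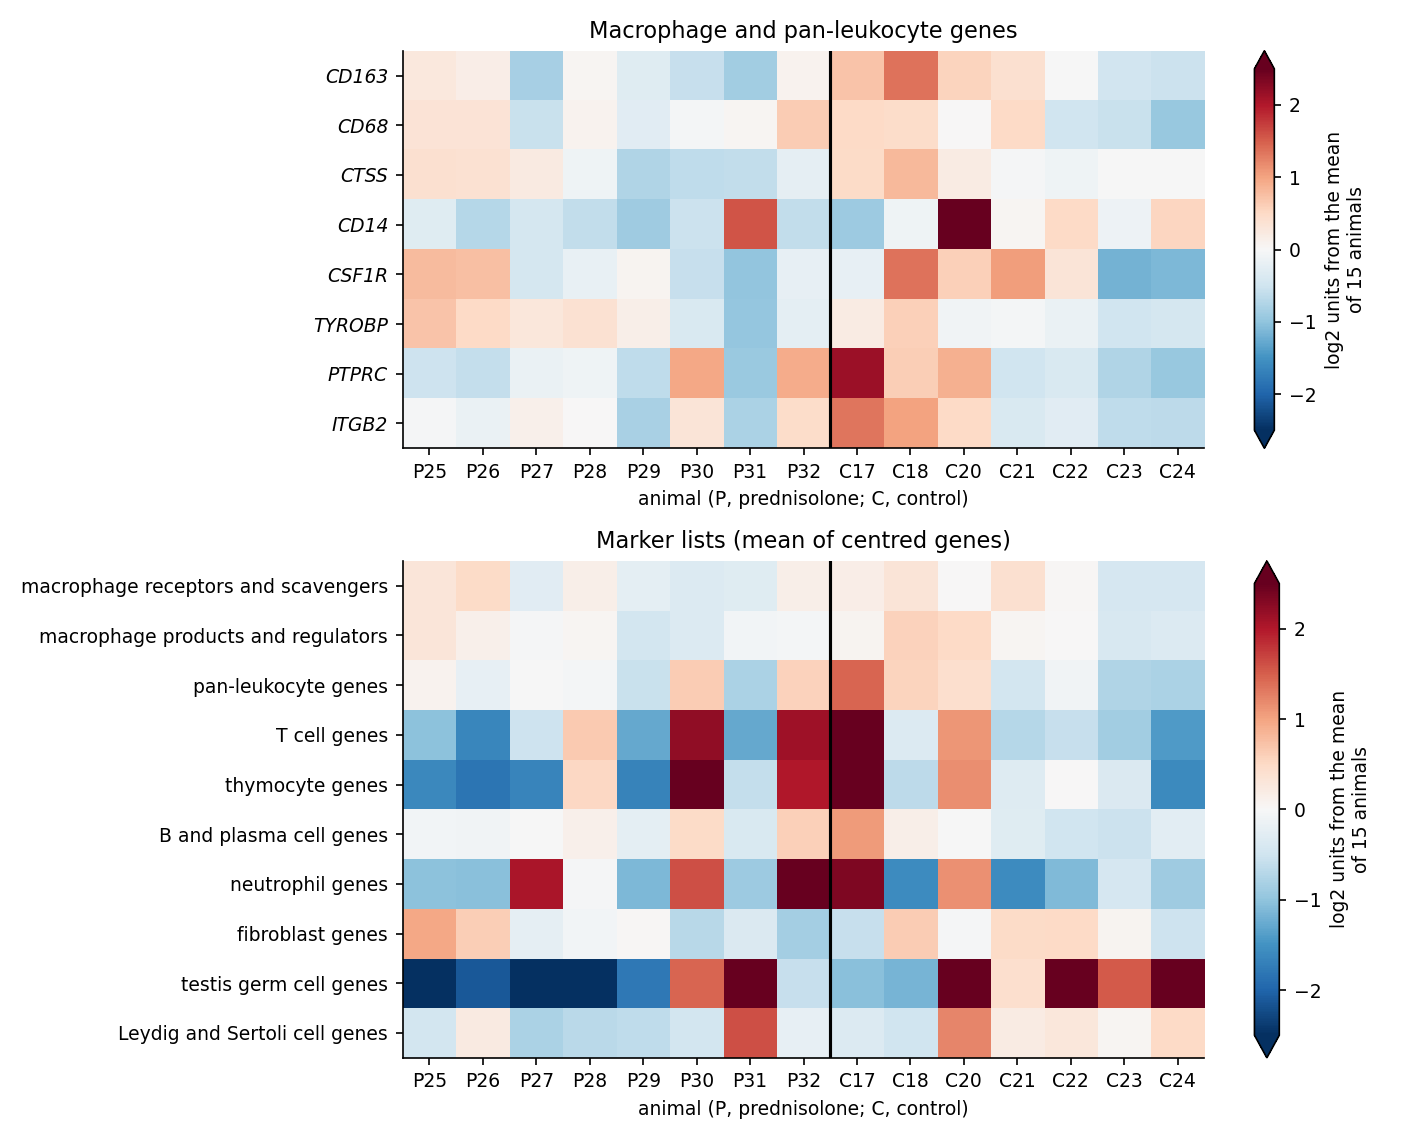
Log2 values of the 8 genes (top) and scores of 10 marker lists (bottom) in each animal, as distance from the mean of the 15 animals; prednisolone animals stand left of the black line and control animals right of it, and values beyond the colour scale take its end colour. PTPRC and ITGB2 are high in P30, P32 and C17, where T cell and thymocyte scores are highest. ITGB2 is also high in C18 (9.50), where the T cell (-0.34) and thymocyte (-0.65) scores are below the mean. CD14 is high in P31 and C20, where the germ cell scores are highest.

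Markers that define other tissues were high in several animals. Protamine PRM1, which packs sperm DNA, ran from 2.25 to 17.48 in prednisolone animals and from 10.89 to 17.84 in control animals, and INSL3, a Leydig cell hormone, reached 15.11 in P31 and 14.32 in C20. Of the 13 testis germ cell genes tested, 12 had a lower and 1 a higher mean in prednisolone animals, with 0 called, and 3 were well above background on all prednisolone arrays. The hepatocyte marker ALB was at 9.24 in P26 and 8.84 in P28, and at most 2.80 in the other animals with a value. Of 11 hepatocyte genes tested, 10 had a higher and 1 a lower mean in prednisolone animals, with 0 called. Of these 11, 5 were well above background on all prednisolone arrays. Of the muscle markers, ACTA1, skeletal muscle actin, ran from 17.28 to 17.94 in prednisolone animals and from 17.39 to 17.76 in control animals. TTN, the giant sarcomere protein titin, varied more, from 9.09 to 10.96 in prednisolone animals and from 8.31 in C17 to 11.57 in C18 among control animals. RAG1, the recombinase of developing lymphocytes, was well above background on 0 of the 8 prednisolone arrays, and CD3E, a T cell receptor subunit, on 8. What places these transcripts in a muscle sample, and their part in the values of PTPRC, ITGB2 and CD14, was not tested.

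**Figure D5:**
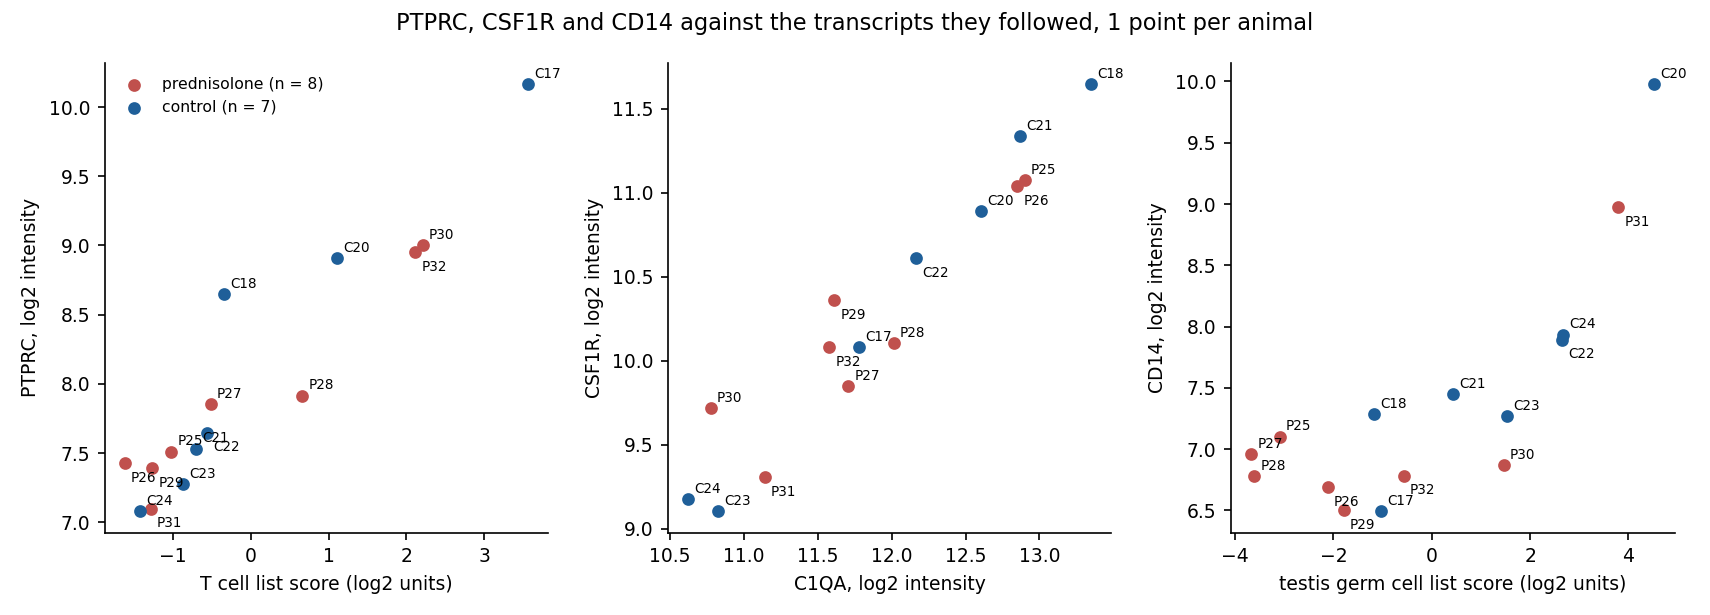
PTPRC against the T cell list score, CSF1R against C1QA and CD14 against the testis germ cell list score, 1 labelled point per animal, with prednisolone animals (n = 8) in red and control animals (n = 7) in blue; axes are log2 units. The animals of both groups lie along the same trend in the first and second panels (r = 0.938 and 0.961), and in the third C20 and P31 lie far above the others.

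The single genes most like each of the 8, by Pearson r over the 15 animals, were searched among 9916 other named genes detected on all prednisolone arrays, and are given without a test. For CSF1R these were the 3 chains of complement C1q, which tissue macrophages make: C1QA (r = 0.961), C1QC (r = 0.941) and C1QB (r = 0.934). C1QA ran from 10.78 to 12.90 in prednisolone animals and from 10.62 to 13.35 in control animals, with P25, P26, C18 and C21 high and P30, C23 and C24 low, as for CSF1R. For CD163 they were SLC7A7 (r = 0.917), an amino acid transporter, SLC29A3 (r = 0.891), a lysosomal nucleoside transporter, and MYD88 (r = 0.858), the adaptor of Toll-like receptors. SLC7A7 was also the gene most like the mean of all 8 (r = 0.969), followed by TNFAIP8L2 (r = 0.890), SCAMP2 (r = 0.878), FGD2 (r = 0.871), PTPN9 (r = 0.863), the chemokine receptor CCR1 (r = 0.862), the inflammasome adaptor PYCARD (r = 0.861) and the phosphatase PTPN6 (r = 0.848).

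For TYROBP the nearest were PYCARD (r = 0.889), the phospholipase family member PLD4 (r = 0.881) and NBL1 (r = 0.876). For CTSS they were the zinc transporter SLC30A7 (r = 0.850), the lysosomal lipid activator GM2A (r = 0.841) and lysozyme LYZ (r = 0.834). PTPRC was closest to FGD3 and DENND1C (r = 0.984 for both) and WAS (r = 0.972), the actin regulator lost in Wiskott-Aldrich syndrome. ITGB2 was closest to LCP1 (r = 0.965), which bundles actin in leukocytes, PARVG (r = 0.949) and LAPTM5 (r = 0.934), a lysosomal protein of haematopoietic cells. CD14 was closest to GLB1L, SIL1 and SRPK2 (r = 0.972 for each), none of which is a leukocyte marker, and CD68 to PHGDH (r = 0.825), TNS3 (r = 0.812) and HEATR1 (r = 0.805). LYZ, PLD4, PARVG, TNS3, HEATR1 and WAS were named only from the probe's description.

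Partners and products of the 8 genes gave the same picture of no called difference. Of 20 other macrophage receptors and scavengers, 15 had a higher and 5 a lower mean in prednisolone animals, with 0 called and a median log2 difference of 0.12. The mannose receptor MRC1 was at 9.57 ± 0.58 in prednisolone animals and 10.03 ± 0.38 in control animals (log2 difference -0.46, 95% interval -0.99 to 0.064, limma adjusted p = 0.993), and TIMD4, a receptor for dying cells, at 7.21 ± 1.11 in prednisolone animals and 8.09 ± 1.12 in control animals (log2 difference -0.88, limma adjusted p = 0.993). The count of this list turned to 9 higher and 10 lower without P25 and P26. Of 24 macrophage products and regulators, 8 had a higher and 16 a lower mean, with 0 called and a median of -0.13. NCF4, a subunit of the phagocyte oxidase, was at 8.39 ± 0.78 in prednisolone animals and 9.34 ± 0.96 in control animals (log2 difference -0.95, 95% interval -1.85 to -0.049, limma adjusted p = 0.993). AIF1, a calcium-binding protein of macrophages, differed by -0.79 (95% interval -1.87 to 0.30, limma adjusted p = 0.993), with its highest values in P31 (9.64) and C20 (10.41).

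In the CSF1R axis, 6 genes had a higher and 4 a lower mean, with PIK3R1, a subunit of phosphoinositide 3-kinase, at a log2 difference of -0.36. CSF2, the growth factor GM-CSF, was well above background on 2 of the 8 prednisolone arrays and its difference is not interpreted. Lipopolysaccharide sensing had 5 higher and 7 lower, with MYD88 at -0.17 and the kinase IRAK1 at 0.49. Haemoglobin clearance had 8 higher and 4 lower, with haemopexin (HPX) at 0.51 and the receptor LRP1 at -0.33. The partners of TYROBP had 4 higher and 4 lower. TREM1 was at -0.25, lower than the control median in 7 of 8 prednisolone animals. PLCG2, well above background on 6 of the 8 prednisolone arrays, was at 0.20. The partners and ligands of ITGB2 had 4 higher and 3 lower, with the adhesion ligand ICAM3 at -0.16 and the alpha chain ITGAL at -0.23. Genes of PTPRC signalling had 7 higher and 4 lower, with the adaptor PAG1 at -0.62 and the kinase LYN at -0.34. Cathepsins and their inhibitors had 9 higher and 12 lower, with CTSC at -0.34 and CTSD at -0.15. In these 7 lists 0 genes were called, and limma's adjusted p was 0.993 for each gene named. Well above background on all prednisolone arrays were 5 of 10 genes of the CSF1R axis and 4 of 8 TYROBP partners. The same held for 11 of 12 genes of lipopolysaccharide sensing, 9 of 12 of haemoglobin clearance and 5 of 7 ITGB2 partners. It held for 8 of 11 genes of PTPRC signalling and 18 of 21 cathepsins and inhibitors. A list of genes that glucocorticoids induce in human monocytes, CD163 among them, had 6 higher and 10 lower, with 0 called and a median log2 difference of -0.19.

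Of the other leukocyte lists, the 26 other pan-leukocyte genes had 11 higher and 15 lower, a count that turned to 20 higher and 4 lower without C17, C20 and P31. The chemokine receptor CXCR4 had a log2 difference of -0.37. RAC2 was well above background on 1 of the 8 prednisolone arrays and its difference is not interpreted. The 15 T cell genes had 4 higher and 11 lower, turning to 11 higher and 4 lower without C17, C20 and P31 and to 9 higher and 5 lower without P25 and P26. Among them CD40LG, well above background on 5 of the 8 prednisolone arrays, had a log2 difference of -0.28. The 10 neutrophil genes had 9 higher and 1 lower, with S100A9, a calcium-binding protein of neutrophils, at 5.87 ± 1.26 in prednisolone animals and 4.74 ± 1.40 in control animals (log2 difference 1.12, 95% interval -0.24 to 2.49, limma adjusted p = 0.993). The thymocyte list had 2 higher and 4 lower, with CD1E, a lipid-presenting molecule, at -0.22, and turned to 5 higher and 1 lower without C17, C20 and P31. The B and plasma cell list had 7 higher and 2 lower, with the immunoglobulin joining chain JCHAIN at 0.32. The natural killer list had 3 higher and 4 lower, with the granule protein NKG7 at 0.16. Mast cell genes had 3 higher and 3 lower, with the transcription factor GATA2 at 0.45, and dendritic cell genes 3 higher and 5 lower, with the growth factor receptor FLT3 at -0.35. Without C17, C20 and P31 the natural killer list had 4 higher and 2 lower and the dendritic cell list 4 higher and 3 lower. The fibroblast list, which CSF1R followed (Pearson r = 0.722, permutation p = 0.00269, adjusted p = 0.0183; Spearman rho = 0.700, permutation p = 0.00501, adjusted p = 0.0341; r = 0.759 without P25 and P32), had 4 higher and 8 lower, with collagen COL3A1 at -0.70. The call of CSF1R with that list was lost without C17, C20 and P31 (adjusted permutation p = 0.0532) and without P25 and P26 (adjusted permutation p = 0.0768). In each of these lists 0 genes were called. Well above background on all prednisolone arrays were 16 of 26 pan-leukocyte, 7 of 15 T cell, 5 of 10 neutrophil and 2 of 6 thymocyte genes. The same held for 6 of 9 B and plasma cell, 2 of 7 natural killer, 1 of 6 mast cell and 3 of 8 dendritic cell genes. It held for 12 of 12 fibroblast genes. The counts of higher and lower genes thus include dim probes and are not read as directions of a cell type.

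The share of spots with a deposited value was 72.1% to 87.4% per array and lowest in C17. Over all 20894 probes, 0 were called by limma and 0 by the exact Wilcoxon test, with 699 and 610 at an unadjusted p under 0.05, and the number of arrays limits the precision.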

How the data were processed

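Total RNA was labelled with Cyanine 3 and hybridised to 1-colour Agilent bovine arrays. The authors deposited 1 table with a linear intensity per spot and array for all 15 animals, and scanner files with intensity and detection flags were used for the 8 prednisolone arrays. Per the file headers these came from Feature Extraction 9.5.1.1, and the submitters' processing notes name R 2.11.1. No source used here tells how the authors scaled the arrays. On the prednisolone arrays the table followed the processed signal with r between 0.999789 and 0.999991 across spots, which are not independent.

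The deposited intensities were log2-transformed and each array shifted so that the 75th percentile of the 14324 probes present on every array was equal, and spots of a probe were averaged. Probes with at least 3 values per group were tested with lmFit and eBayes (no trend) of limma 3.58.1, run in R 4.3.3. P-values were adjusted by Benjamini-Hochberg and called under 0.05. Permutation tests were coded directly in Python 3.11.15, with ranks from SciPy 1.17.1. They were exact over 6435 splits for single genes and used 100000 permutations for correlations. Names came from the RefSeq table by gene identifier, accession, symbol or synonym, and otherwise from the description: 16941 of 21475 probes were named, and a gene with several probes was represented by its brightest. The named genes are all 8 members, genes picked from the lists, and the genes with the highest r. Only list genes with a value on all arrays could be picked, so that a gene with a smaller p can be unnamed. Picked were the 2 with the smallest unadjusted p in each of 10 partner lists and the 1 in each of the others. The latter are given for leukocyte lists and where a result turns on it. DNTT, PRM1, INSL3, ALB, ACTA1, TTN, RAG1 and CD3E from the marker lists are given as checks. The members, gene lists and alternatives were chosen with earlier results of these data known. The code was tested on simulated data. Each sample has its own animal number and was taken as 1 animal, and p-values measure the spread between these animals.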

Additional observations from a re-analysis of the deposited data

Results flagged for a closer look

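Within each group, the highest and lowest animal of each of the 8 genes, and of the dim probes described as similar to CD163, were compared with the nearest other animal by Dixon's ratio at its 95% level. Of 22 groups examined, 5 held such an animal, and chance gives about 1 in 20. CD14 was at 8.98 in P31, where the next prednisolone animal was at 7.10. CD14 was at 9.98 in C20, where the next control animal was at 7.93. These 2 animals also had the highest testis germ cell scores, 3.79 and 4.53, whose part in the CD14 values was not tested. The other 3 concern probes at background, and their values are not interpreted: CD163-like 1 was at 1.91 in P27 (next 1.45), CD163-like 2 at 4.28 in P27 (next 2.60) and CD163-like 5 at 4.22 in C20 (next 2.17).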

How the results depend on the processing

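Each difference was recomputed under 27 alternatives and by the exact permutation test. The number of the 8 genes called was 0 under every one, and the smallest adjusted p among them was 0.480 (CD14 without C17, C20 and P31). The exact permutation test, the trend and robust prior and the changes of probe filter left each difference as it was, so that its sign could not turn. The sign turned in 7 of 224 values, these included. With array weights it turned for CSF1R (0.0023), PTPRC (0.12) and ITGB2 (0.10), without C17, C20 and P31 for PTPRC (0.37) and ITGB2 (0.18), without C17 for PTPRC (0.045, the upper end of a range down to -0.47 when single animals were left out), and without P25 and P26 for TYROBP (-0.068); the cause was not tested. The median of the 8 differences was 0.053 with array weights and 0.060 without C17, C20 and P31. Over all probes between 0 and 1 was called when animals were left out in turn (PZP without P31, ZNF696 without C23), and 1 without C17, C20 and P31 (PZP). Of the 28 pairs of genes, 7 were called with all animals. The count was 4 without the 2 farthest animals, 2 without C17, C20 and P31, 2 without P25 and P26 and 7 without C17, P30 and P32. Fewer animals entered each of these. With all animals it was 7 with quantile normalization and 10 when values were centred on group means. The exclusions of P25 and P26 and of C17, P30 and P32 were chosen after seeing the data. Since each gene has 1 probe, the mean of all probes gave no other value. No paired analysis was possible because the groups share no animal number. Detection limits CD68 most.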
